A study of Mus musculus with 12 samples.

Results

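Chemokines and their receptors were described in mouse liver, as the 49 protein-coding genes of the deposited count table whose symbols begin with Ccl, Ccr, Cxcl, Cxcr or Cx3c and, except for Cx3c, go on with a number, or are Xcl1 or Xcr1. They were 30 ligands and 19 receptors, out of 27022 genes in the table, of which 16500 were protein-coding. The samples were livers of 6 female SJL/J mice aged 11 weeks, without any transgene. The 3 control mice ate an AIN-93G diet with 50 ppm iron throughout, and the 3 iron-loaded mice ate the same base diet until 6 weeks of age and then a version with 2% carbonyl iron. All mice were fasted on the morning of collection and perfused through the heart to flush out blood. Each RNA was made into 1 whole transcript library (Trad-KAPA, from sheared mRNA) and 1 library of reads near the 3′ end of each transcript (3’-LEXO), giving 12 libraries. The mice on each diet came from 1 cage of 4, so diet and cage cannot be told apart in any value here.

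Chemokines are small secreted proteins that draw leukocytes along a gradient, and their receptors are G protein-coupled receptors on the surface of those leukocytes. Most bind several partners, so they are ordered here by the receptor they are best known for. In the liver, chemokines are made by Kupffer cells (the resident macrophages), sinusoidal endothelial cells, stellate cells and hepatocytes, and many are induced by inflammatory cytokines through the transcription factor NF-κB. In bulk liver RNA, fewer cells of a type and less RNA per cell cannot be told apart.

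The libraries held 10724672 to 16553616 counts, and members of the family took 425 to 704 CPM (counts per 1000000 counts of a library) in Trad-KAPA and 799 to 958 CPM in 3’-LEXO. Iron-loaded mouse 1 stood apart from the other mice of its diet in both kits. Over genes, chi-square per degree of freedom was 49.4 to 59.8 between this mouse and iron-loaded mice 2 and 3, against 5.97 and 5.98 between mice 2 and 3. Between control mice it was 18.5 to 19.9 in Trad-KAPA and 25.8 to 35.9 in 3’-LEXO, so iron-loaded mice 2 and 3 were more alike than any control pair. Results that changed when the library of iron-loaded mouse 1 was left out are given with and without it. All 8 hepatocyte markers, among them Alb and Ttr, had reads in both kits, and their summed level was 114640 to 154199 CPM in Trad-KAPA and 47658 to 71376 CPM in 3’-LEXO.

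The stretches of DNA before the start sites of the 6 members called in either kit that have an entry in the promoter table are shown first, with a motif that NF-κB is known to bind. The motif searched was GGGANNNNCC, where N is any base, on both strands, in the 250 bases before each start in the RefSeq promoter table (GRCm38.p6). In the sequences below, written 5′ to 3′ on the strand of the gene, capitals mark bases inside a match on either strand. Cxcl1 (chr5:90890995-90891244, plus strand) held 3 matches, which began 90, 71 and 70 bases before the start. The latter pair overlapped on opposite strands. Cxcl2 (chr5:90903649-90903898, plus strand) held 2 overlapping matches on opposite strands, 97 and 96 bases before the start. Ccl6 (chr11:83593088-83593337, minus strand), Cxcr4 (chr1:128592300-128592549, minus strand) and Cxcl12 (chr6:117168285-117168534, plus strand) held 0 matches. Of 3 promoters of Ccl27a, 2 overlapping ones shared 1 match on the opposite strand and the third held 0, and the one shown (chr4:41774102-41774351, minus strand) has the match 144 bases before the start.
Cxcl1: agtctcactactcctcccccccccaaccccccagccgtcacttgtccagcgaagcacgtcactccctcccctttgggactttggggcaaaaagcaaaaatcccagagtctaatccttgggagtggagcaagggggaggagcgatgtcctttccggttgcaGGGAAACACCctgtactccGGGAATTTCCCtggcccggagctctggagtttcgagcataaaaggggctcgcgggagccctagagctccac
Cxcl2: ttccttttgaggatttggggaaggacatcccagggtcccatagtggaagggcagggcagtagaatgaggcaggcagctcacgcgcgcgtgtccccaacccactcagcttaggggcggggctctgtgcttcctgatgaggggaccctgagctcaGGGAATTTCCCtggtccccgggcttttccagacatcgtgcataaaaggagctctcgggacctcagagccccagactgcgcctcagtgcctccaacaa
Ccl6: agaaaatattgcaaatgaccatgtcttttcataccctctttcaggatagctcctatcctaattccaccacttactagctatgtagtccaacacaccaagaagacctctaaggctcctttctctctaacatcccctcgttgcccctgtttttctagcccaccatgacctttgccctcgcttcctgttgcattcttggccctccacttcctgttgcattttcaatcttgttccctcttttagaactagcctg
Cxcr4: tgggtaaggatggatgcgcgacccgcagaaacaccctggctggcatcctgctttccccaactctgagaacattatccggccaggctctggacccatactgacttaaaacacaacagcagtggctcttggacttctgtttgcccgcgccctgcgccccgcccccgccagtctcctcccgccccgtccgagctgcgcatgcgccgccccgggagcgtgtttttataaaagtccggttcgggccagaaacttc
Cxcl12: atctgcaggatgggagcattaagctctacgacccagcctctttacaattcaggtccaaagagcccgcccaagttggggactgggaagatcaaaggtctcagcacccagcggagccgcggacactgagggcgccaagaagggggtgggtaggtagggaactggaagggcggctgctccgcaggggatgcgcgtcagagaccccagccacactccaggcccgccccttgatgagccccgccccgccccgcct
Ccl27a: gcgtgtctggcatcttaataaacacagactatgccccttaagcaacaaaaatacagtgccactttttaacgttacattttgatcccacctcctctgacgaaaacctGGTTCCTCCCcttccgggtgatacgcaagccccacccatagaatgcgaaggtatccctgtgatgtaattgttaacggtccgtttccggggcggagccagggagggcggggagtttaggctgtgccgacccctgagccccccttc

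The promoter table matched 35 of the 49 members with 39 promoters, and 16 of these, or 41%, held the motif. Among all 32851 promoters of the table the share was 17.6%. It was 41.7% of 24 promoters of ligands and 40% of 15 promoters of receptors. A match of letters is a description and not a site of binding. Members without an entry included Ccl2, Ccl4, Ccl5, Ccl7, Ccl11, Ccl24, Cxcl5, Cxcl16, Cxcl17, Ccr1l1, Ccr7, Ccr10 and Cxcr5. The sequences are those of the C57BL/6J reference and not of SJL/J.

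Most members had few reads. At least 1 read was found in each of the 6 libraries for 29 members with Trad-KAPA, 33 with 3’-LEXO and 26 with both. A mean of at least 1 CPM was reached by 18 members with Trad-KAPA and 23 with 3’-LEXO, and a mean of at least 10 CPM by 4 and 6. No read was seen in 3’-LEXO for Ccl1, Ccl20, Ccr8 and Ccr1l1, whereas all 49 had a read in at least 1 Trad-KAPA library. That contrast rests on totals of 1, 1, 2 and 8 Trad-KAPA reads for these genes, and 7 of the Ccr1l1 reads came from iron-loaded mouse 1. Members with at most 3 reads in every library were 12 with Trad-KAPA against 10 with 3’-LEXO. The 8 that were at this floor in both kits were Ccl1, Ccl12, Ccl20, Cxcl17, Ccr4, Ccr8, Ccr10 and Cxcr1. Cxcl2, Cxcl5, Ccl8 and Ccl17 were at the floor in Trad-KAPA alone, and Ccl11 and Ccr1l1 in 3’-LEXO alone.

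**Figure D1:**
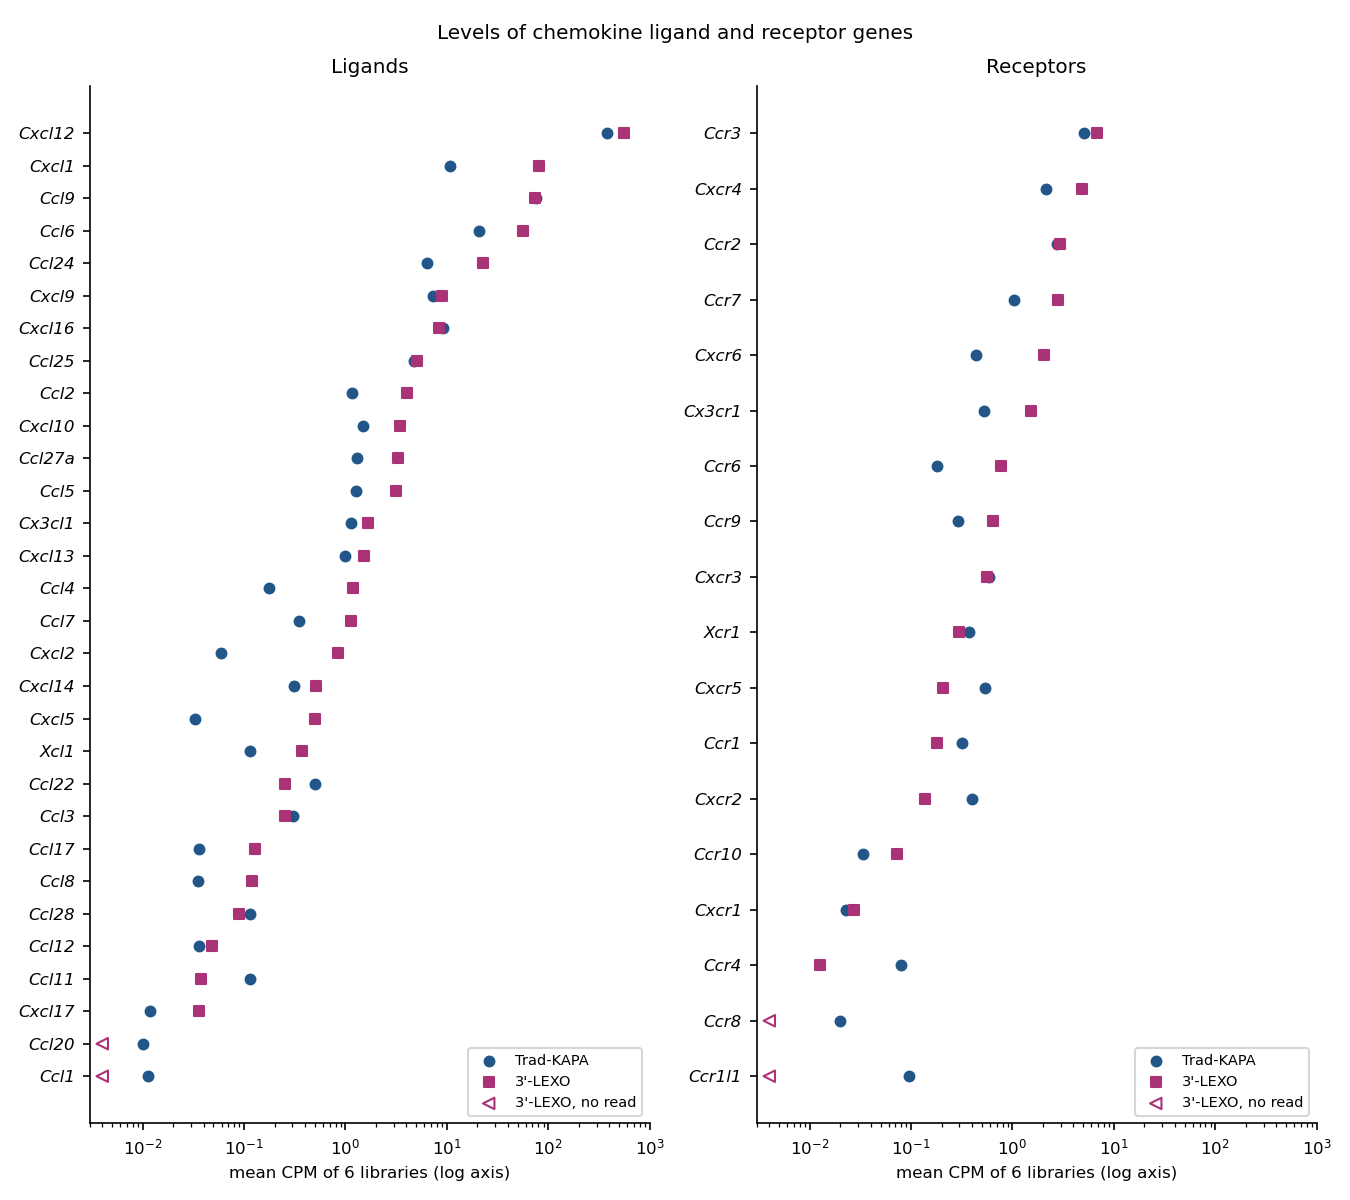
Mean level of the 30 ligands (left) and 18 of the receptors (right) over the 6 libraries of a kit, as CPM on a log axis, with circles for Trad-KAPA, squares for 3’-LEXO and open triangles for genes without a read. Cxcl12 is the highest member in both kits, and 4 members have no 3’-LEXO read.

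Cxcl12, which holds CXCR4-bearing cells in tissues, was the most abundant member per length. It reached 46.7 CPM per kb of exon in Trad-KAPA (mean of 6 libraries) and 559 CPM in 3’-LEXO, where a transcript gives reads from its 3′ end only and levels are not divided by length. It made up 54.7% to 79.9% of the family's counts in Trad-KAPA libraries and 49.7% to 78.7% in 3’-LEXO. In Trad-KAPA, Ccl9, Ccl6, Cxcl1 and Ccl24 followed at 25.1, 11.5, 5.77 and 4.90 CPM per kb. The order in 3’-LEXO, over both diets, was Cxcl1 at 81.4, Ccl9 at 74.1, Ccl6 at 56.3 and Ccl24 at 22.6 CPM. In 3’-LEXO control mice alone, Cxcl1 (mean of 40.0 CPM) was below Ccl9 (72.0 CPM). The highest receptor per length in Trad-KAPA was Ccr3 at 1.54 CPM per kb, and it had 6.81 CPM in 3’-LEXO.

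The diets were compared within each kit by edgeR's quasi-likelihood test with Benjamini-Hochberg adjustment over all genes tested, and a gene was called at an adjusted p under 0.05. Genes with few reads were filtered out, which left 18 members in Trad-KAPA (13 ligands and 5 receptors) and 25 in 3’-LEXO (17 and 8). In Trad-KAPA, 5 of the 18 were called, beside 17.1% of all genes tested, and 3 of them (Ccl2, Ccl6 and Cxcr4) rose with iron loading, beside 8.77% of all genes, while 2 (Cxcl12 and Ccl27a) fell, beside 8.37%. In 3’-LEXO, 6 of the 25 were called, beside 6.1% of all genes tested. All 6 rose, beside 3.17% of all genes that rose and 2.92% that fell, and they were Ccl2, Ccl7, Ccl6, Cxcl1, Cxcl2 and Cxcr4. The median log2 fold change of the members tested was 0.32 with Trad-KAPA, where it was 0.02 over all genes tested, and 0.50 with 3’-LEXO, where it was 0.01. The filter needed enough reads in as many libraries as a diet has, so a gene could enter through either diet alone. Examples are Ccl2 in Trad-KAPA and Ccl7 and Cxcl2 in 3’-LEXO, through the iron-loaded libraries, with at most 5, 5 and 6 control reads. Ccl27a in Trad-KAPA entered through the control libraries. The counts of calls and the medians are not free of this selection. All genes were filtered alike. Ccl2, Ccl6 and Cxcr4 were called in both kits, that is 3 of 18 members tested in both, beside 5.23% of genes tested in both. Both kits measured the same 6 mice, so a call in both is not a second set of animals.

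**Figure D2:**
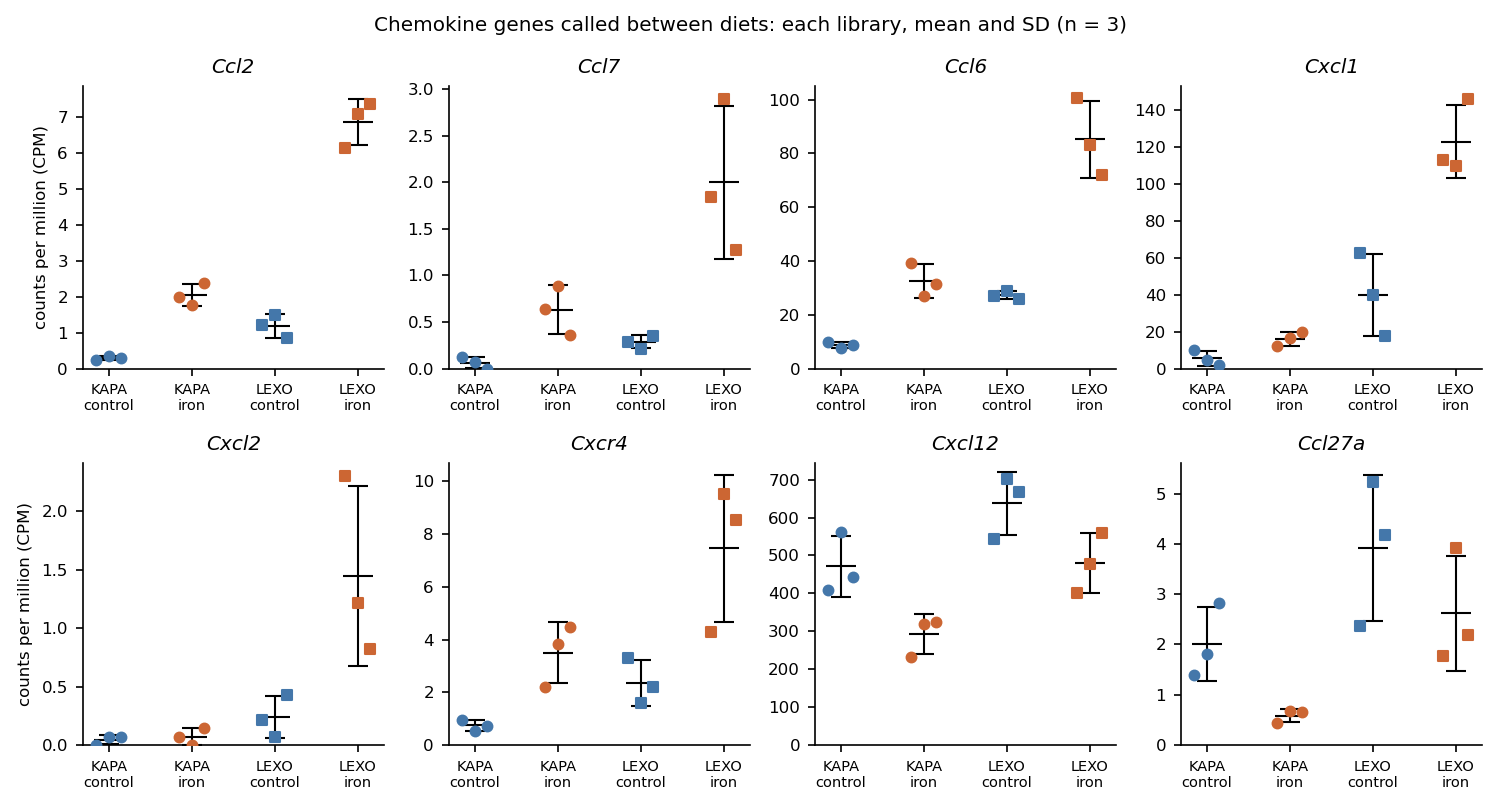
CPM of the 8 members called in either kit, in each library. Circles are Trad-KAPA and squares 3’-LEXO libraries, blue is control and orange iron-loaded, and bars give the mean and SD of 3 mice on axes that start at 0. The iron-loaded libraries lie above all control libraries of the same kit for Ccl2, Ccl6, Cxcl1 and Cxcr4, and below them for Cxcl12 and Ccl27a in Trad-KAPA.

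Ccl2 (chr11:82035571-82037453), the main ligand of CCR2 and an attractant of monocytes, rose in both kits. In Trad-KAPA it was at 0.242, 0.335 and 0.289 CPM in control mice 1, 2 and 3 and at 2.00, 1.78 and 2.37 CPM in iron-loaded mice 1, 2 and 3. In 3’-LEXO the same mice gave 1.21, 1.503 and 0.851 CPM on the control diet and 6.14, 7.09 and 7.36 CPM under iron loading. Every iron-loaded mouse was above every control mouse in both kits. The log2 fold change was 2.73 ± 0.34 (SE, n = 3 mice per diet; edgeR adjusted p = 0.00366), a 6.64-fold rise, in Trad-KAPA and 2.47 ± 0.26 (edgeR adjusted p = 0.00159), a 5.53-fold rise, in 3’-LEXO. The Trad-KAPA control values rest on 4, 5 and 4 reads. Ccl2 was called under all 11 alternative settings in both kits, with an adjusted p of at most 0.0204.

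Ccl7 (chr11:82045712-82047525), another CCR2 ligand whose gene is the next chemokine gene after Ccl2, was called in 3’-LEXO. Its 3’-LEXO level was 0.286, 0.215 and 0.355 CPM in the control mice and 1.84, 2.89 and 1.27 CPM in the iron-loaded mice, and the diets did not overlap. This was a log2 fold change of 2.71 ± 0.48 (edgeR adjusted p = 0.0142). In Trad-KAPA it had 2, 1 and 0 reads in the control mice and 9, 13 and 5 in the iron-loaded mice, which was under the filter, although DESeq2, with its own filter, called it (adjusted p = 0.0391). The 3’-LEXO call was lost without control mouse 1, 2 or 3, with an adjusted p of 0.0546, 0.0657 and 0.055 in edgeR, and the log2 fold change then stayed between 2.52 and 2.91. In the same cluster on chromosome 11, Ccl8 and Ccl12 had at most 0.307 and 0.145 CPM in any library and were not tested.

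Ccr2, the receptor that monocytes use to leave the bone marrow and enter tissue, did not pass the test in either kit. Its level was 2.72, 1.88 and 1.23 CPM in the control mice and 3.14, 3.35 and 4.17 CPM in the iron-loaded mice in Trad-KAPA. These did not overlap, as was the case for 24.7% of all genes tested in the higher direction. Its log2 fold change was 0.79 ± 0.29 (edgeR adjusted p = 0.0939). In 3’-LEXO the diets overlapped and the value was 0.56 ± 0.38 (edgeR adjusted p = 0.396). Of 7 monocyte markers, edgeR called 0 of the 5 tested in either kit, 0 had an unadjusted p under 0.05 and DESeq2 called 0. Their summed level was 3426 to 3570 CPM on control diet and 3773 to 4026 CPM under iron loading in Trad-KAPA, and 1005 to 1292 and 826 to 1258 CPM in 3’-LEXO. Fn1, which hepatocytes also express, made up most of this sum. The part of monocyte markers in these results was not tested.

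Ccl6 (chr11:83587882-83593087), a myeloid chemokine that binds CCR1, showed the smallest adjusted p among members in both kits. It was at 9.79, 7.50 and 8.67 CPM in control mice and 39.4, 27.1 and 31.3 CPM in iron-loaded mice in Trad-KAPA. The 3’-LEXO values were 27.1, 28.8 and 26.02 CPM on control diet and 100.5, 83.3 and 72.2 CPM under iron loading. No iron-loaded library fell near the control libraries of its kit, and iron-loaded mouse 1 was the highest in both. On the log2 scale the rise was 1.84 ± 0.16 (3.57-fold; edgeR adjusted p = 0.00107) in Trad-KAPA and 1.58 ± 0.15 (2.99-fold; edgeR adjusted p = 0.000767) in 3’-LEXO. It was called under all 11 alternatives in both kits.

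Ccl9 (chr11:83572919-83578636), the neighbouring gene and likewise a CCR1 ligand, had nearly the same level in every library. Trad-KAPA gave 78.4, 71.7 and 72.6 CPM in control mice and 74.9, 82.0 and 78.1 CPM in iron-loaded mice. The 3’-LEXO values were 66.9, 82.7 and 66.4 CPM and then 71.8, 80.0 and 76.6 CPM. Its log2 fold change was 0.01 ± 0.10 (edgeR adjusted p = 0.95) in Trad-KAPA and 0.03 ± 0.14 (edgeR adjusted p = 0.928) in 3’-LEXO. It was thus the member with the smallest fold change in either kit.

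Further CC ligands lay in the same part of chromosome 11. Ccl5, made by T cells and NK cells, was tested in both kits at log2 fold changes of 0.39 ± 0.37 and 0.12 ± 0.35 and was not called. Ccl4, a macrophage inflammatory protein, had 0.500, 0.429 and 0.993 CPM in control mice and 1.76, 1.59 and 1.91 CPM in iron-loaded mice in 3’-LEXO. These did not overlap, as was the case for 18.5% of all genes tested in the higher direction. The log2 fold change of Ccl4, 1.37 ± 0.42, did not pass (edgeR adjusted p = 0.0794), and in Trad-KAPA it was under the filter. Ccl3 and the receptor Ccr1 were under the filter in both kits and had means below 0.33 CPM.

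Kupffer cell markers bear on this group, since these cells are a known source of CC chemokines. All 11 had reads in both kits. Their summed level was 502 to 786 CPM on control diet and 874 to 953 CPM under iron loading in Trad-KAPA, and 1131 to 1517 and 1491 to 1724 CPM in 3’-LEXO, where the diets overlapped. Of the 11, edgeR called Marco and Vsig4 with Trad-KAPA and Marco with 3’-LEXO. All of these rose, beside 8.77% and 3.17% of all genes called higher. Marco, a scavenger receptor of macrophages, rose by 3.10 ± 0.29 on the log2 scale in Trad-KAPA (edgeR adjusted p = 0.00143) and by 2.82 ± 0.33 in 3’-LEXO (edgeR adjusted p = 0.00233). The part of Kupffer cell number in the chemokine results was not tested.

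Cxcl1 (chr5:90891241-90893115), a CXCR2 ligand that recruits neutrophils and carries the 3 motif matches shown above, rose in 3’-LEXO. It was at 62.3, 39.7 and 17.9 CPM in control mice and 113.0, 109.7 and 145.7 CPM in iron-loaded mice. In Trad-KAPA the values were 9.79, 4.82 and 2.02 CPM and then 12.3, 16.3 and 19.8 CPM. The control mice ranked in the same order in both kits, with mouse 1 the highest, and no iron-loaded mouse fell below them. edgeR gave a log2 fold change of 1.58 ± 0.35 (2.98-fold; edgeR adjusted p = 0.0329) in 3’-LEXO and 1.47 ± 0.43 (edgeR adjusted p = 0.051) in Trad-KAPA, where it was not called. DESeq2 called it in both kits, with an adjusted p of 0.00391 in Trad-KAPA. The 3’-LEXO call was lost without control mouse 2 (edgeR adjusted p = 0.116), control mouse 3 (0.0577) or iron-loaded mouse 3 (0.0859). In Trad-KAPA the gene was called without control mouse 1 (edgeR adjusted p = 0.0243) or iron-loaded mouse 1 (0.0242).

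Cxcl2 (chr5:90903871-90905938), a further CXCR2 ligand next to Cxcl1, was called in 3’-LEXO at low counts. It had 3, 1 and 6 reads in control mice, or 0.214, 0.0716 and 0.425 CPM, and 30, 13 and 9 reads in iron-loaded mice, or 2.30, 1.21 and 0.818 CPM. The diets did not overlap, and iron-loaded mouse 1 was the highest. The rise was 2.504 ± 0.62 on the log2 scale (edgeR adjusted p = 0.0443), and only 3 of 10 alternatives kept the call. It was lost without any 1 of the 6 mice, with an adjusted p from 0.0581 to 0.143. Leaving out control mouse 3 gave a log2 fold change of 3.22, and leaving out iron-loaded mouse 1 gave 2.00. In Trad-KAPA it had at most 2 reads in any library, and 5.84% of its 50-base stretches also occur in Cxcl3.

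Of the remaining members of this axis, Cxcl5, which lies in the same cluster, was under the filter in both kits and had at most 0.839 CPM. Their receptor Cxcr2, carried by neutrophils, was under the filter too, at no more than 1.01 CPM. Cxcr1 was at the floor in both kits. Neutrophil markers were low but higher under iron loading without overlap, at 2.67 to 5.13 against 10.3 to 14.1 CPM in Trad-KAPA and 8.01 to 18.1 against 28.9 to 63.8 CPM in 3’-LEXO. Of the 7, each had a read in both kits. edgeR called 3 of the 3 it tested with Trad-KAPA and 2 of 3 with 3’-LEXO, all higher, beside 8.77% and 3.17% of all genes called higher. S100a8 and S100a9 in Trad-KAPA and Retnlg in 3’-LEXO passed the filter through the iron-loaded libraries, with control means of 0.651, 0.561 and 0.476 CPM. These shares are therefore not free of selection for a rise. S100a8 and S100a9 were called in both. S100a8 rose by 1.51 and 1.75 on the log2 scale and S100a9 by 2.48 and 1.79. These genes made up most of the 3’-LEXO sum, at 25.9 and 18.0 CPM of an iron-loaded mean of 48.9 CPM. Ly6g, another marker of the list, had a mean of at most 0.0479 CPM on either diet in either kit. The part of neutrophil number in the results for Cxcl1 and Cxcl2 was not tested.

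Cxcr4 (chr1:128588199-128592293), the receptor of CXCL12, rose in both kits. The Trad-KAPA level was 0.967, 0.536 and 0.723 CPM in control mice and 2.21, 3.83 and 4.46 CPM in iron-loaded mice. The 3’-LEXO level was 3.29, 1.57 and 2.20 CPM and then 4.29, 9.51 and 8.54 CPM. The diets did not overlap in either kit, and iron-loaded mouse 1 was the lowest of its diet in both. On the log2 scale it rose by 2.16 ± 0.37 (4.46-fold; edgeR adjusted p = 0.00988) in Trad-KAPA and 1.60 ± 0.37 (3.03-fold; edgeR adjusted p = 0.037) in 3’-LEXO. The Trad-KAPA call held under all 11 alternatives and the 3’-LEXO call under 5. The latter was lost without control mouse 1, 2 or 3 (edgeR adjusted p = 0.0586, 0.123 and 0.121) and without iron-loaded mouse 2 or 3 (0.0745 and 0.0985).

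Its ligand Cxcl12 (chr6:117168535-117181367) fell in Trad-KAPA. The values were 409.8, 562 and 442 CPM in control mice and 232 CPM, 319.6 and 325 CPM in iron-loaded mice. In 3’-LEXO they were 544, 701 and 668 CPM and then 401 CPM, 477 and 560.0 CPM. The diets were separate in Trad-KAPA and overlapped in 3’-LEXO, where iron-loaded mouse 3 passed control mouse 1. On the log2 scale the change was -0.75 ± 0.19 (0.594-fold; edgeR adjusted p = 0.0302) in Trad-KAPA and -0.47 ± 0.19 (edgeR adjusted p = 0.164) in 3’-LEXO. DESeq2 called it in Trad-KAPA alone as well. The call was lost without control mouse 2 (edgeR adjusted p = 0.0993), control mouse 3 (0.0792), iron-loaded mouse 2 (0.0533) or iron-loaded mouse 3 (0.0556).

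Stellate and sinusoidal endothelial cells are known sources of Cxcl12. The summed level of 7 stellate markers overlapped between diets in both kits, at 337 to 448 against 398 to 424 CPM in Trad-KAPA and 723 to 887 against 714 to 748 CPM in 3’-LEXO. For 8 sinusoidal endothelial markers it was 325 to 431 against 366 to 442 CPM in Trad-KAPA. The 3’-LEXO sums were 362 to 445 against 308 to 324 CPM, lower under iron loading. Every marker of both lists had reads. Of the stellate markers, Des and Ngfr fell in Trad-KAPA, by 0.80 ± 0.20 and 1.17 ± 0.32 on the log2 scale (edgeR adjusted p = 0.0301 and 0.0389). In 3’-LEXO, Des had -0.09 ± 0.19 (edgeR adjusted p = 0.801) and Ngfr had -0.99 ± 0.26 (edgeR adjusted p = 0.0546). The other stellate markers were not called in either kit. Stab2 and Fcgr2b fell in 3’-LEXO and Lyve1 rose in both kits. Their part in the Cxcl12 result was not tested.

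Cxcl9 and Cxcl10, interferon-induced ligands of CXCR3, a receptor of activated T cells and NK cells, did not pass the test. Cxcl9 was at 9.73, 10.05 and 5.49 CPM in control mice and 6.43, 7.17 and 4.82 CPM in iron-loaded mice in Trad-KAPA. The 3’-LEXO values were 11.9, 14.3 and 6.74 CPM and then 8.51, 6.34 and 6.18 CPM. Control mouse 3 was near the iron-loaded mice in both kits, so that the diets overlapped. Log2 fold changes were -0.52 ± 0.24 (edgeR adjusted p = 0.172) and -0.69 ± 0.26 (edgeR adjusted p = 0.131). Cxcl10 had 0.72 ± 0.44 and 0.60 ± 0.38 with overlap in both kits, and Cxcr3 was under the filter at a mean of 0.588 and 0.557 CPM.

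Ccl24 (eotaxin 2, chr5:135569937-135573049), a ligand of CCR3 that draws eosinophils, was close to the threshold in both kits. It was at 6.04, 4.96 and 3.54 CPM in control mice and 8.35, 7.38 and 7.83 CPM in iron-loaded mice in Trad-KAPA. In 3’-LEXO it was at 20.5, 19.2 and 14.5 CPM and then 29.1, 26.7 and 25.5 CPM. The diets were separate in both kits, beside 24.7% and 18.5% of all genes tested in the higher direction. The log2 fold changes of 0.62 ± 0.19 (edgeR adjusted p = 0.0563) and 0.53 ± 0.15 (edgeR adjusted p = 0.0707) did not pass. In Trad-KAPA edgeR called it without a filter (adjusted p = 0.0427) and at equal depth (0.0324). Its receptor Ccr3 had -0.46 ± 0.26 (edgeR adjusted p = 0.243) and -0.71 ± 0.24 (edgeR adjusted p = 0.106) in Trad-KAPA and 3’-LEXO, with separate diets in 3’-LEXO alone, beside 12.8% of all genes tested in the lower direction. Ccl11, the other eotaxin, had at most 0.273 CPM and was not tested.

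Ccl27a (chr4:41769467-41774247), a skin and epithelial chemokine that binds CCR10, fell in Trad-KAPA. It had 1.39, 1.81 and 2.82 CPM in control mice and 0.428, 0.683 and 0.647 CPM in iron-loaded mice, without overlap. In 3’-LEXO the values overlapped, at 2.36, 5.22 and 4.18 CPM and then 1.76, 3.92 and 2.18 CPM. The log2 fold change was -1.82 ± 0.41 (0.283-fold; edgeR adjusted p = 0.0217) in Trad-KAPA and -0.64 ± 0.38 (edgeR adjusted p = 0.324) in 3’-LEXO. This value is uncertain, because 45% of the 50-base stretches of its transcripts also occur in annotated copies such as Ccl27b. The Trad-KAPA call was lost without control mouse 2 (edgeR adjusted p = 0.0585), control mouse 3 (0.0617) or iron-loaded mouse 3 (0.0547). Ccl28, which shares CCR10, and Ccr10 itself had at most 0.355 and 0.213 CPM.

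Ccr7, which guides dendritic cells and naive T cells to lymph nodes, was not called. Its diets were separate in both kits, beside 24.7% and 18.5% of all genes tested in the higher direction. It was at 0.544, 1.00 and 0.361 CPM in control mice and 1.57, 1.43 and 1.29 CPM in iron-loaded mice in Trad-KAPA. In 3’-LEXO it was at 2.57, 1.57 and 1.35 CPM and then 2.61, 4.66 and 4.18 CPM, so that iron-loaded mouse 1 exceeded control mouse 1 by a small margin. The log2 fold change was 1.09 ± 0.39 (edgeR adjusted p = 0.0844) in Trad-KAPA and 1.00 ± 0.34 (edgeR adjusted p = 0.11) in 3’-LEXO. Its ligands Ccl19 and Ccl21a, Ccl21b and Ccl21c, which have near-identical copies in the annotation, have no row in the count table. In all, 14 annotated protein-coding entries that match the symbol rule are absent from it, with Ccl26, Ccl27, Ccl27b, Cxcl3 and Cxcl15 among them.

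Cxcl16, the membrane-bound partner of CXCR6 on T cells and NKT cells, was among the 8 highest members. It was at 10.5, 6.83 and 7.01 CPM in control mice and 10.9, 10.6 and 9.20 CPM in iron-loaded mice in Trad-KAPA, and at 10.2, 9.09 and 4.61 CPM and then 7.67, 8.76 and 10.4 CPM in 3’-LEXO. The diets overlapped in both kits, and the log2 fold change was 0.26 ± 0.19 and 0.12 ± 0.27. Exons of Cxcl16 share 18.3% of their length with Zmynd15 on the opposite strand, and whether the counting used the strand was not stated. Cxcr6 was tested in 3’-LEXO alone, at 0.09 ± 0.53.

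The other members tested were not called. Ccl25, the ligand of the gut-homing receptor CCR9, had -0.19 ± 0.25 and -0.26 ± 0.24. Cx3cl1 (fractalkine) had 0.13 ± 0.42 and 0.13 ± 0.33, and its receptor Cx3cr1 on monocytes 0.47 ± 0.40 in 3’-LEXO. Cxcl13, which draws B cells, had 1.22 ± 0.71 in 3’-LEXO, with 5.06 CPM in iron-loaded mouse 1 against 0.455 to 1.14 CPM in the other 5 mice. Ccr6, carried by B cells and Th17 cells, had 0.50 ± 0.44 in 3’-LEXO. The members under the filter in both kits that have not yet been named with a value were Ccl17, Ccl22, Cxcl14, Xcl1, Ccr9, Cxcr5 and Xcr1, with means from 0.0358 CPM (Ccl17) to 0.533 CPM (Cxcr5) in Trad-KAPA. In that kit, Ccl22, made by dendritic cells and macrophages, had 0.181, 0.134 and 0.0723 CPM in control mice and 1.43, 0.410 and 0.791 CPM in iron-loaded mice, and DESeq2, with its own filter, called it (adjusted p = 0.0285).

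**Figure D3:**
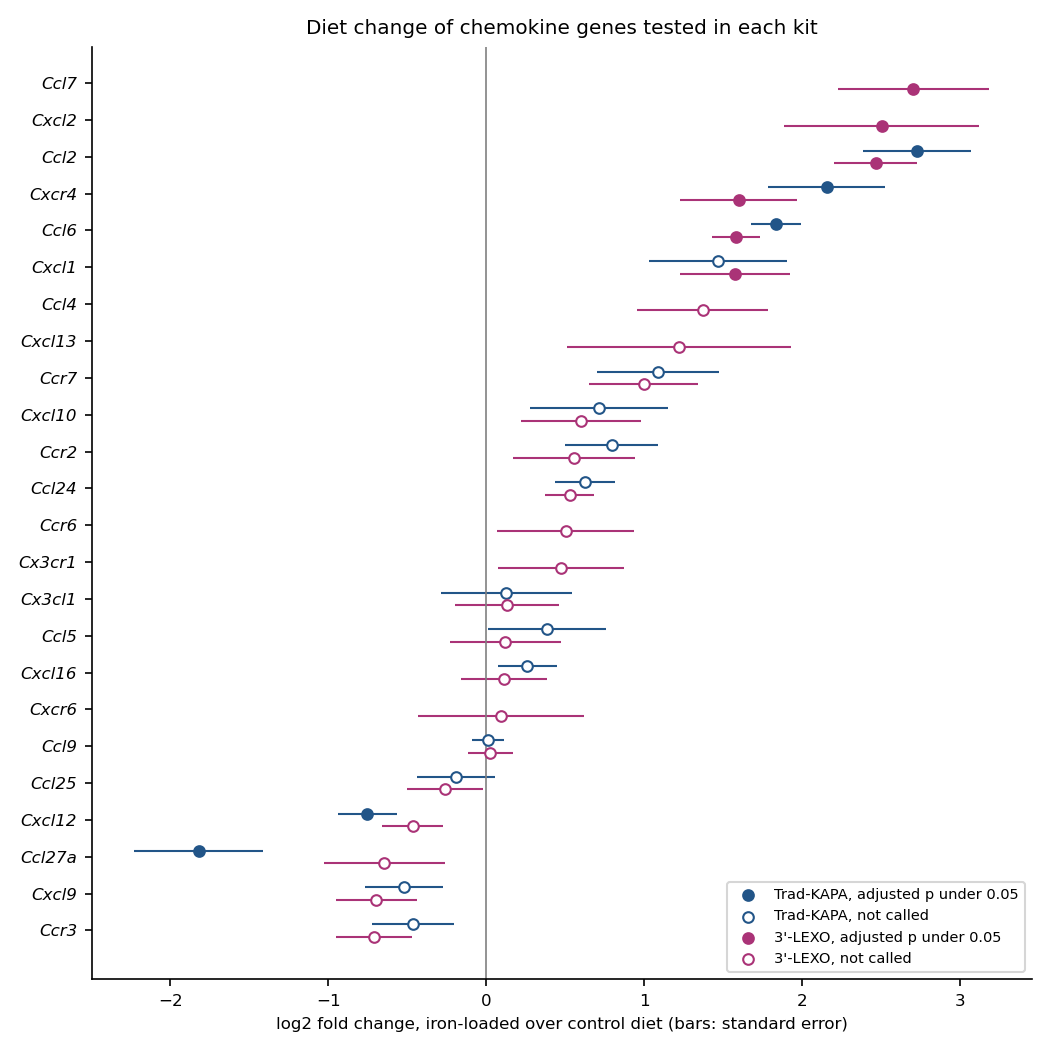
Log2 fold change of iron-loaded over control mice (edgeR) for 24 of the members tested in at least 1 kit, ordered by the 3’-LEXO value, with standard errors as bars. Filled points were called at an adjusted p under 0.05. The 3 members with filled points in both kits, Ccl2, Ccl6 and Cxcr4, lie between 1.58 and 2.73, and Ccl9 lies at 0.01 and 0.03.

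A term for the difference between the kits in their diet change was fitted to the 12 libraries together, at first without a term for the mouse. With edgeR, 0 of 27 members tested were called, and 0 had an unadjusted p under 0.05. Over all 14384 genes, 0.0% were called, 402 had an unadjusted p under 0.05, and DESeq2 called 0 of them and 0 members. For Ccl2, Ccl6 and Cxcr4 the 3’-LEXO log2 fold change differed from that of Trad-KAPA by -0.26 ± 0.39, -0.25 ± 0.21 and -0.56 ± 0.58. Since each mouse gave a library in both kits, the term was also fitted with the mouse as a block. edgeR then called 0 of 27 members and 5 of all genes, and 2 members and 1026 genes had an unadjusted p under 0.05. The 2 members were Ccl27a, at a difference of 1.18 ± 0.44, and Cxcl12, at 0.29 ± 0.12, with edgeR adjusted p of 0.538 and 0.641. For Cxcl1 the difference was 0.06 ± 0.18. After adjustment, no member called in 1 kit only was shown to differ between kits in either fit. In simulated counts the fit without a mouse term recovered 35.5% of genes given a log2 change of 1. The lack of calls thus does not show that the kits had equal diet changes.

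The kits did differ in how many reads a member drew. Among the 26 members with a read in all 12 libraries, 15 had a higher 3’-LEXO than Trad-KAPA CPM in 6 of 6 mice, beside 35.9% of 14049 genes with a read in all libraries. Every 3’-LEXO library was above every Trad-KAPA library for 2 of the 26, beside 22.6% of the 14049 genes. The ratio of mean 3’-LEXO to mean Trad-KAPA CPM was 7.52 for Cxcl1, whose merged exons span 1875 bases, and 2.73 for Ccl6 with 1795. It was 1.46 for Cxcl12, with 8176 bases, and 0.971 for Ccl9, with 3045. Members with few Trad-KAPA reads and a higher 3’-LEXO level in 6 of 6 mice included Ccl4 and Ccl7, at ratios of 6.73 and 3.30. Cxcr5 and Ccr1 were lower in 3’-LEXO in 6 of 6 mice, at 0.388 and 0.566, but at 0 to 9 and 0 to 4 3’-LEXO reads per library. Neither is therefore among the 26 members above, and the share of all genes lower in 6 of 6 mice was not counted.

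Genes that act below or beside the chemokine receptors were taken as 3 lists. Of 31 genes of receptor signalling, 29 were tested in each kit. In Trad-KAPA, 3 rose and 2 fell, with a median log2 fold change of 0.18, and in 3’-LEXO 1 rose, with a median of 0.02. Of all genes, 17.1% and 6.1% were called, and the 5 and 1 of 29 did not exceed this background by a full gene. Rgs1, which shortens G protein signals in lymphocytes and macrophages, rose in both kits. It was at 0.686 ± 0.0322 CPM (SD, n = 3) in control and 3.95 ± 0.292 CPM in iron-loaded mice in Trad-KAPA, at a log2 fold change of 2.45 ± 0.24 (edgeR adjusted p = 0.00148), and 3’-LEXO gave 2.17 ± 0.20 (edgeR adjusted p = 0.000756).

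Among 19 atypical receptors and related attractants, 15 were tested in Trad-KAPA, where 2 rose and 2 fell at a median of 0.03, and 18 in 3’-LEXO, where 1 fell at a median of -0.08. Again 17.1% and 6.1% of all genes were called. Ackr2, a decoy receptor that removes inflammatory CC chemokines, among them CCL2, fell in both kits. It went from 4.38 ± 1.54 to 1.62 ± 0.413 CPM in Trad-KAPA, at -1.49 ± 0.32 on the log2 scale (edgeR adjusted p = 0.02). In 3’-LEXO the change was -1.66 ± 0.41 (edgeR adjusted p = 0.0443). The 3’-LEXO call of this list was lost when any library other than iron-loaded mouse 2 was left out.

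The list of 30 cytokines and transcription factors that induce chemokines had 29 in the table and 26 tested in each kit. In Trad-KAPA, 4 rose and 2 fell at a median of 0.25, and in 3’-LEXO 2 rose at a median of 0.19, beside 17.1% and 6.1% of all genes called. Nfkbia, an inhibitor of NF-κB that NF-κB itself induces, rose by 0.74 ± 0.16 in Trad-KAPA (edgeR adjusted p = 0.0195) and by 0.81 ± 0.20 in 3’-LEXO (edgeR adjusted p = 0.0466). Cebpd, a transcription factor of the acute phase response, rose by 1.16 ± 0.14 (edgeR adjusted p = 0.00326) and 0.98 ± 0.19 (edgeR adjusted p = 0.0184). Nfkb2, a subunit of NF-κB, fell by 0.51 on the log2 scale in Trad-KAPA. In 3’-LEXO 0 genes of this list were called without control mouse 2, control mouse 3 or iron-loaded mouse 3.

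**Figure D4:**
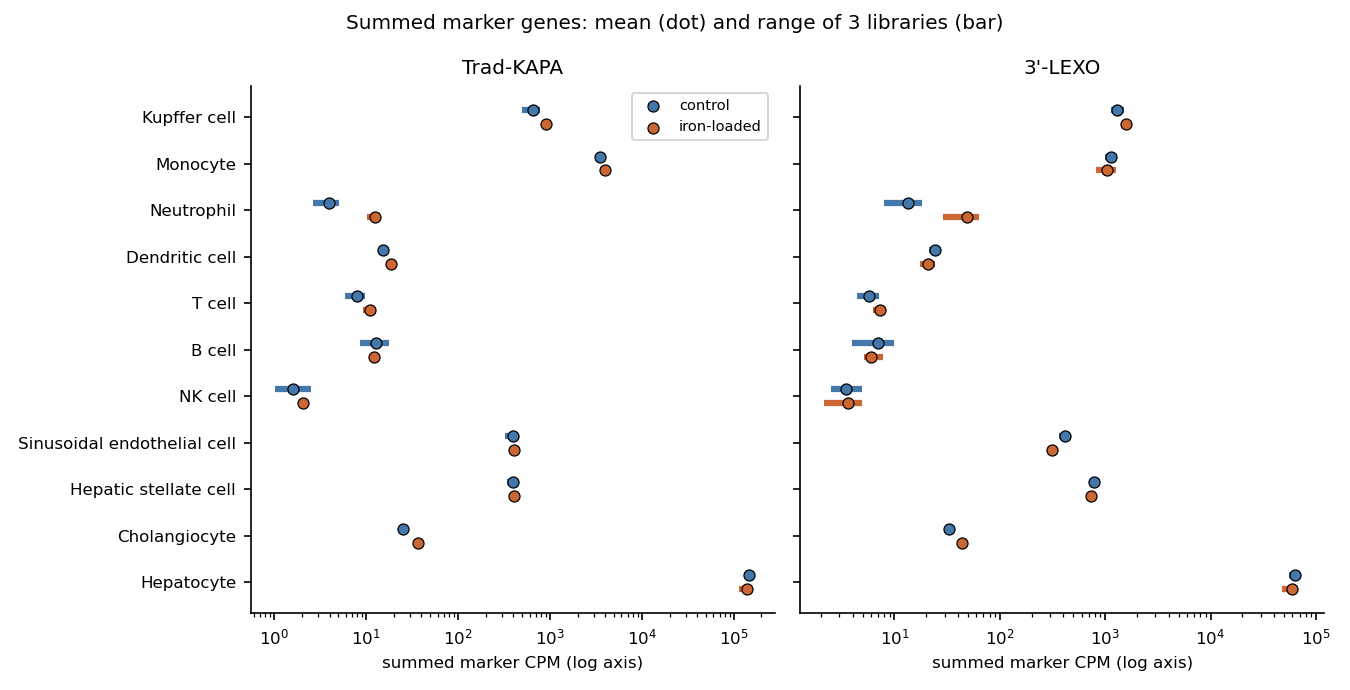
Summed CPM of the marker genes of 11 cell types in Trad-KAPA (left) and 3’-LEXO (right), on log axes. Dots are means and bars the range of 3 libraries, in blue for control and orange for iron-loaded mice. Neutrophil and cholangiocyte sums are higher under iron loading without overlap in both kits, and most of the cholangiocyte sum is Spp1.

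Among the other leukocyte markers, T cell, B cell and NK cell sums overlapped between diets in both kits, and edgeR called 0 of their genes tested, with 0 at an unadjusted p under 0.05 and 0 called by DESeq2. T cell sums were 5.93 to 9.67 against 9.22 to 12.4 CPM in Trad-KAPA and 4.40 to 7.15 against 6.27 to 8.02 CPM in 3’-LEXO. B cell sums were 8.53 to 17.8 against 11.4 to 13.4 CPM and 3.97 to 9.86 against 5.14 to 7.74 CPM. NK cell sums were 1.01 to 2.55 against 1.91 to 2.16 CPM and 2.501 to 4.94 against 2.14 to 4.91 CPM, and just 1 of the 6 NK genes passed the filter in 3’-LEXO and 0 in Trad-KAPA. These low sums leave little precision for the receptors that such cells carry.

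Dendritic cell sums were 14.8 to 15.9 against 17.8 to 20.3 CPM in Trad-KAPA and 21.1 to 25.9 against 17.5 to 24.2 CPM in 3’-LEXO, where the diets overlapped. With each gene weighted equally, as the mean of log2(CPM + 1), both kits were higher under iron loading, by 0.36 and 0.20. Zbtb46 made up 20.9 CPM of the control mean of 24.1 CPM in 3’-LEXO. Itgax, which macrophages also express, was the 1 gene of this list that edgeR called, in Trad-KAPA. Cholangiocyte sums were 23.6 to 26.5 against 33.5 to 39.0 CPM in Trad-KAPA and 30.0 to 37.4 against 43.3 to 44.2 CPM in 3’-LEXO. Most of this sum was Spp1, a secreted protein that macrophages make as well, which rose in both kits by 0.65 and 0.70 on the log2 scale. Sox9, the next highest marker of this list, was lower, at -0.57 ± 0.22 (edgeR adjusted p = 0.106) and -0.66 ± 0.18 (edgeR adjusted p = 0.0569). Epcam was at 0.52 ± 0.31 and 0.15 ± 0.37. Neither was called, and Krt19 and Krt7 were under the filter in both kits. The part of these cell types in the chemokine results was not tested.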

How the data were processed

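Poly(A) RNA of 6 mouse livers was sequenced in 12 libraries, with the replicate number naming the same mouse in both kits. The authors mapped reads with STAR 2.5.3a to GRCm38 (mm10) and counted reads unique to the exons of each gene, without removing duplicates. The values used are these raw counts as deposited, whole numbers with no normalization. The counting program, its strand setting and the annotation are not given in the sources used here. Reads of SJL/J mice were mapped to a C57BL/6J reference. Symbols, gene types, coordinates and exon lengths came from GENCODE M21 (GRCm38), which held 26949 of 27022 identifiers. Promoters were RefSeq's.

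CPM is counts per 1000000 counts of the library, and CPM per kb divides it by the merged exon length. Diets were compared within each kit, and the interaction over all libraries, with edgeR 4.0.16 (R 4.3.3, limma 3.58.1): TMM normalization, filterByExpr, quasi-likelihood F test, Benjamini-Hochberg adjustment over all genes tested, threshold 0.05. SE was the log2 fold change divided by the square root of F. The fits were tested on simulated counts. In these, 200 genes were given a log2 change of 1, at a coefficient of variation of 15%. edgeR recovered 82.0% of them in the Trad-KAPA fit, 82.5% in the 3’-LEXO fit and 35.5% in the interaction fit without a mouse term. Of its calls, 5.75%, 5.71% and 5.33% were false. The simulated libraries shared no mouse between kits. The p-values set the difference between diets against the spread among mice of the same diet, which shared 1 cage. The spread between cages could not be estimated. A gene with at most 3 counts in every library counts as being at the floor, and it has no fold here.

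Alternatives were DESeq2 1.42.0 (which the authors used), its size factors in edgeR, no filter, the replicate number as a block, 10000000 counts per library drawn at random, and each mouse left out. Genes in the text were every member called in either kit, the 8 highest in either kit, and list genes called in both kits. Of the members, 1 is counted among them but its values are not reported here. Other genes named were chosen after their values were seen. The members and lists were chosen with earlier results of these data known. Same-numbered libraries of the kits deviated together (r = 0.444 to 0.77 over 10326 genes with a mean of at least 50 counts), while numbers did not pair mice across diets (r = -0.168 to 0.1). Across kits, 3 of 3 control numbers and 2 of 3 iron-loaded numbers correlated best with their own. Python 3.11.15, numpy 2.4.6, pandas 2.3.3 and matplotlib 3.10.9 were used for the other steps.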

Additional observations from a re-analysis of the deposited data

How the results depend on the processing

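Of the 8 members called in either kit, all kept the direction of each called change under every alternative. In edgeR, the number of members called in Trad-KAPA (5) became 8 with DESeq2 and 10 without a filter, and 3 to 6 with 1 mouse left out, with 3 without control mouse 2, control mouse 3 or iron-loaded mouse 3. In 3’-LEXO (6) it became 10 without a filter and 2 to 6 with 1 mouse left out, with 3 without control mouse 1 or iron-loaded mouse 3 and 2 without control mouse 2 or 3. Members called in both kits (3) became 5 with DESeq2, 6 without a filter and 2 to 4 with 1 mouse left out. Over all genes, the 2255 Trad-KAPA calls became 841 to 2803 with 1 mouse left out. The 811 3’-LEXO calls became 1313 with DESeq2, 2040 without a filter and 199 to 871 with 1 mouse left out. The interaction, with 0 calls, gave 7 genes without a filter, and 0 members and 0 genes with 1 mouse left out. With 1 mouse left out fewer samples enter the fit, and for the other changes the cause was not tested.

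Across diets the replicate numbers do not name pairs of mice (r = -0.168 to 0.1, where 2 of 3 numbers correlated best with their own in Trad-KAPA and 1 of 3 in 3’-LEXO). With the replicate number as a block, 3’-LEXO called 3 members and 436 genes, and Cxcl1, Cxcl2 and Cxcr4 were no longer called (edgeR adjusted p = 0.0604, 0.0946 and 0.0956). In the same fit the receptor signalling list had 2 calls in Trad-KAPA, the related attractants 2 in 3’-LEXO and the inducers 0 in 3’-LEXO. The other counts of members and list genes stayed within 1.5 times the count without the block. With the mouse as a block, which pairs the kits, the interaction called 5 genes.

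The receptor signalling list gave 3 Trad-KAPA calls at equal depth and 1 to 5 with 1 mouse left out, and in 3’-LEXO 3 with DESeq2 and 3 without a filter. The related attractants gave 0 to 3 Trad-KAPA calls with 1 mouse left out. In 3’-LEXO they gave 3 with DESeq2, 4 without a filter, 0 at equal depth and 0 to 1 with 1 mouse left out. The inducers gave 2 to 7 in Trad-KAPA with 1 mouse left out, and in 3’-LEXO 4 with DESeq2, 5 without a filter and 0 to 3 with 1 mouse left out. A mean of at least 1 CPM in place of a read in each library left 18 members in Trad-KAPA, and a read in any library gave 49. Summed markers were also taken as the mean of log2(CPM + 1), which weights genes equally. The iron-loaded minus control value then was 0.34 and 0.21 for monocytes (0.16 and -0.17 as the log2 ratio of sums), 0.70 and 0.88 for neutrophils (1.70 and 1.85), 0.27 and -0.15 for sinusoidal endothelial cells (0.06 and -0.39), -0.20 and -0.25 for stellate cells (0.05 and -0.10), 0.0572 and 0.15 for cholangiocytes (0.54 and 0.40), in Trad-KAPA and 3’-LEXO in that order. In 3’-LEXO it was 0.20 for dendritic cells (-0.21) and 0.14 for hepatocytes (-0.10). TMM scaling gave 0.0901 for the Trad-KAPA monocyte sum.

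The limits are 3 mice per diet, each diet from 1 cage, and few reads for most of the family. Members under edgeR's filter in both kits have no edgeR diet test in the report, and DESeq2, with its own filter, called 1 of them, Ccl22 in Trad-KAPA.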

Other observations

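Cxcl11, an interferon-induced ligand of CXCR3, was left out of the family above because the annotation used here types it as a polymorphic pseudogene, which depends on the strain. It had 5.26, 6.70 and 4.55 CPM in control mice and 2.93, 3.14 and 2.95 CPM in iron-loaded mice in Trad-KAPA. In 3’-LEXO it had 6.79, 7.58 and 4.40 CPM and then 2.76, 2.98 and 3.36 CPM. Every iron-loaded mouse was below every control mouse in both kits. The log2 fold change was -0.94 ± 0.20 (edgeR adjusted p = 0.0187) and -1.09 ± 0.25 (edgeR adjusted p = 0.0354). Its exons share 41.7% of their length with the pseudogene Gm2673 on the opposite strand, and the strand setting of the counting is not known. The gene was singled out after its values were seen.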
